A study of Mus musculus with 8 samples.

Results

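The genes described here are 10 transcripts that mark long-term hematopoietic stem cells (LT-HSC): Hlf, Meis1, Mllt3, Mecom, Procr, Slamf1, Ly6a, Esam, Fgd5 and Ctnnal1. They were taken by name, and all 10 were present among the 18174 gene symbols of the tables. Single LT-HSC from wild-type male C57BL/6J mice aged 18 months, bought from JAX and left untreated, were profiled by mCEL-Seq2, a plate method that marks the 3′ end of each polyadenylated RNA with the barcode of its cell and a molecule tag (unique molecular identifier, UMI). The marrow was pooled from bones of the leg, hip and spine, and both groups were gated as Lin-CD150+CD48-CD34-Kit+Sca1+. The groups differed in the surface protein Dlk1, an atypical Notch ligand, as Dlk1+ (4 libraries) or Dlk1- (4 libraries). The labels name no animals, so it is not known how many mice stand behind a library, and p-values measure only the spread between these libraries.

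LT-HSC sit at the top of the blood system, where they divide rarely and renew themselves while giving rise to all blood lineages. A small group of nuclear regulators keeps this state, and a set of surface proteins is used to sort the cells. Among the surface proteins, CD150 (encoded by Slamf1) and Sca1 (encoded by Ly6a), were part of the gate of both sorts, so their transcripts were measured in cells already chosen for the protein.

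A barcode counted as a cell when it held at least 1000 transcripts, which left 220 Dlk1+ and 321 Dlk1- cells. Libraries held between 39073 and 517559 transcripts. Dlk1+ replicate 3 was the shallowest: 1 transcript there equals 25.6 CPM (transcripts per 1e6 of the library total), a count of 3 equals 76.8 CPM, and only 4 of its 26 cells reached 2000 UMIs. Transcripts of Gm10800 and Gm26870 took between 10.1% and 32.8% of a library. Dlk1 itself averaged 507 ± 146.1 CPM over the 4 Dlk1+ and 28.6 ± 23.9 CPM (SD) over the 4 Dlk1- libraries, with no overlap. Kit was detected in every library. Cd34, whose protein was gated as negative, averaged 49.9 ± 22.3 CPM (SD, n = 8 libraries). It was 0 in the shallow Dlk1+ replicate 3 and ran from 48.3 to 78.1 CPM in the others. Its RNA was thus present in cells sorted as CD34-, and the cause was not tested. Cd48, also gated as negative, had 5 transcripts in all 8 libraries, all in Dlk1+ replicate 4. Within that library, barcode 91 held 36327 UMIs (8.07% of the library) and 2804 of the UMIs of 8 neutrophil granule genes, against 31 in all other kept barcodes. It carried 29 UMIs of the identity genes, and results that rest on it are given without it where they differ.

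All 10 identity genes were detected in both sorts, and none of them passed the test between the sorts. Hlf was the most abundant at 518 ± 73.5 CPM (SD, n = 8 libraries). Meis1 followed with 299 ± 63.3 CPM, Mllt3 with 278 ± 78.5 CPM and Ly6a with 158.7 ± 75.5 CPM. Mecom, Esam and Procr lay close together at 120.3 ± 47.8, 119.05 ± 32.1 and 113.5 ± 37.3 CPM. Slamf1 had 68.6 ± 29.6 CPM, Fgd5 61.02 ± 19.2 CPM and Ctnnal1 29.8 ± 15.2 CPM. A 3′ method counts a molecule once whatever its length, so these CPM levels were compared without a length term.

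The order of the levels was firm at its top only. Hlf was above Meis1 in 8 of 8 libraries with ranges that did not overlap. Fgd5 was listed above Ctnnal1 in 8 of 8, but in Dlk1+ replicate 3 this was 1 UMI against 0, which does not order them. Mllt3 lay above Ly6a in 7 of 8 libraries and Procr above Slamf1 in 7 of 8. Meis1 and Mllt3 kept their order in 6 of 8 libraries, Mecom and Esam in 6 of 8, Esam and Procr in 5 of 8, and Ly6a and Mecom as well as Slamf1 and Fgd5 in only 4 of 8. Except for Hlf and Meis1, the library ranges of all neighbours overlapped.

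**Figure D1:**
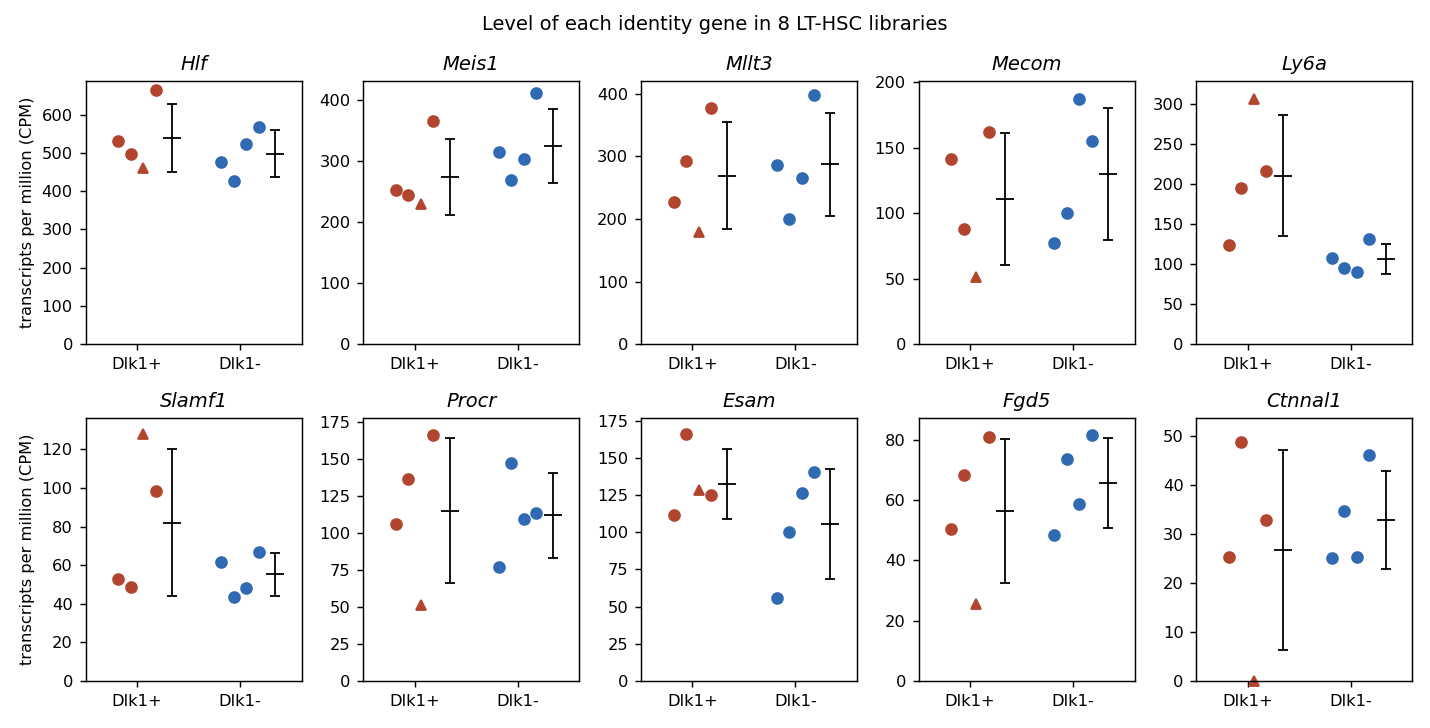
Level of each identity gene in CPM (linear axis from 0) in 4 Dlk1+ libraries (red) and 4 Dlk1- libraries (blue). Points are libraries in replicate order, the triangle is the shallow Dlk1+ replicate 3, and the black bars give mean ± SD; Ly6a averaged 211 ± 75.6 CPM in the Dlk1+ group and 106.6 ± 18.6 CPM in the Dlk1- group.

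Among the nuclear regulators, Hlf encodes a bZIP transcription factor of the PAR family that is used to mark HSC. The gene lies on chromosome 11 (chr11:90336535-90390917 of mm10, as in RefSeq for GRCm38.p6). In Dlk1+ libraries 1 to 4 it had 531, 498, 461 and 664 CPM, and in Dlk1- libraries 1 to 4 it had 476, 425, 524 and 566 CPM. The groups overlapped widely, the highest library being Dlk1+ replicate 4 and the lowest Dlk1- replicate 2. The log2 fold change (Dlk1+ against Dlk1-) was 0.11 with a 95% confidence interval from -0.35 to 0.57, and the adjusted p was 0.938 by limma-voom with Benjamini-Hochberg adjustment.

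Meis1, a homeodomain cofactor of HOX proteins, lies at chr11:18880428-19019651. It had 253, 244, 230.4 and 366 CPM in Dlk1+ and 315, 269, 303 and 411 CPM in Dlk1- libraries. The highest Dlk1+ library lay inside the Dlk1- range and the other 3 lay below it. Its log2 fold change was -0.21 (95% confidence interval -0.69 to 0.27), with an adjusted p of 0.884 by limma-voom. Meis1 shares exon bases with Gm37818 on the same strand and with Gm16140 on the other strand in GENCODE, so reads of these genes may not be told apart.

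Mllt3, also called AF9, is a reader of acylated histones that works in transcription elongation complexes, and lies at chr4:87769925-88033407. It had 228, 293, 179.2 and 377 CPM in Dlk1+ and 286, 199.7, 265 and 398 CPM in Dlk1- libraries, so the groups overlapped over most of their range. The log2 fold change of Mllt3 was -0.02 (95% confidence interval -0.55 to 0.50).

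Mecom encodes Evi1, a zinc finger regulator of HSC, and lies at chr3:29951296-30509759. It had 141.6, 87.8, 51.2 and 161.99 CPM in Dlk1+ and 77.3, 99.8, 187.2 and 155.1 CPM in Dlk1- libraries. Within the Dlk1- group, replicates 1 and 2 (plate 5, as the names of the tables give it) were below replicates 3 and 4 (plate 6). The log2 ratio of the Mecom means was 0.37 on plate 5 and -0.68 on plate 6, and over both plates the log2 fold change was 0.06 (95% confidence interval -0.62 to 0.75). The value of 51.2 CPM rests on 2 UMIs. Mecom shares exon bases with the antisense gene Mecomos, and the strand used in counting is not given in the sources used here.

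The sequence upstream of the start is shown for the 3 most abundant members. Windows of 250 bases before the RefSeq start (GRCm38.p6) were found for 8 of the 10 genes, with 10 windows in all, and Ly6a and Esam did not match. Each was searched on both strands for the motif AGATAA of GATA proteins, the core CGGAAG of ETS factors, the core TGTGGT of RUNX factors, the palindrome CAGCTG known as an E-box, the element TTTGAA of cell cycle genes (CHR) and the cAMP response element TGACGTCA, which was added after the Hlf sequence was read. Capitals mark matches, and each sequence is given 5′ to 3′ on the strand of the gene up to the first annotated exon base. Hlf is chr11:90390918-90391167, Meis1 chr11:19018986-19019219 and Mllt3 chr4:88033544-88033657, all on the minus strand.
Hlf: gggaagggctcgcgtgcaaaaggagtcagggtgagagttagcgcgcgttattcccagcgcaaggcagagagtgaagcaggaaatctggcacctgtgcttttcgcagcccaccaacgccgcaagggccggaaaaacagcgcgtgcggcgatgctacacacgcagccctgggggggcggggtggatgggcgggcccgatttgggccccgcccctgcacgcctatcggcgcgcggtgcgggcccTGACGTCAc
Meis1: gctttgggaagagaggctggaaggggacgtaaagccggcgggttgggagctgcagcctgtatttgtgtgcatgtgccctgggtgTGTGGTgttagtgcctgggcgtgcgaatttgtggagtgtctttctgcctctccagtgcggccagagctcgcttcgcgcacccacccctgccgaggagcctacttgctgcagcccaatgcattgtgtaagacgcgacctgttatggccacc
Mllt3: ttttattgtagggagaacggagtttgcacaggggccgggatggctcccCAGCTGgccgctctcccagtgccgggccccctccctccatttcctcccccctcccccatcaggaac
TGACGTCA began at position -9 from the start of Hlf and occurs in 1.56% of 32536 mouse promoter windows of the same length. The capitals in Meis1 are TGTGGT (13.96% of all windows) and those in Mllt3 are CAGCTG at position -202 (13.1% of all windows). Over the 10 windows, CGGAAG was found in 3 (13.7% of all), CAGCTG in 2, TGTGGT in 1, and AGATAA (9.97% of all) and TTTGAA (15.8% of all) in 0. These matches describe the letters of the windows only.

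Among the surface proteins, Ly6a stood out. It encodes Sca1, a GPI-anchored protein of the Ly6 family, and lies at chr15:74994877-74998031 in a cluster of related Ly6 genes, so some of its reads may be shared with paralogs. Ly6a had 123.9, 195, 307 and 217 CPM in Dlk1+ and 108.2, 95.5, 90.4 and 132.1 CPM in Dlk1- libraries. All but 1 of the 4 Dlk1+ libraries lay above every Dlk1- library, and that library, replicate 1, lay inside the Dlk1- range. On each plate, both Dlk1+ libraries were above both Dlk1- libraries, with log2 ratios of the means of 0.65 on plate 5 and 1.24 on plate 6.

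The log2 fold change of Ly6a was 0.82 with a standard error of 0.24, a 1.76-fold difference (95% confidence interval 1.24 to 2.51). The unadjusted p was 0.00354 and the adjusted p over 5666 genes was 0.576 by limma-voom, so the difference did not pass the threshold of 0.05. The direction was the same in all 22 alternative fits, with log2 fold changes from 0.50 to 0.95 and adjusted p from 0.248 to 0.957. Without the shallow Dlk1+ replicate 3 the log2 fold change was 0.72. In library sums, more RNA per cell and more cells with the RNA cannot be told apart.

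Slamf1 encodes CD150, a receptor of the SLAM family, and lies at chr1:171767131-171801184. It had 53.1, 48.8, 127.99 and 98.5 CPM in Dlk1+ and 61.8, 43.4, 48.4 and 67.1 CPM in Dlk1- libraries. The 2 Dlk1+ libraries on plate 6 were above all others, while those on plate 5 lay within the Dlk1- range, and the log2 ratio of the means was -0.05 on plate 5 and 0.97 on plate 6. Over both plates the log2 fold change of Slamf1 was 0.41 (95% confidence interval -0.19 to 1.00). The value of replicate 3 rests on 5 UMIs.

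Procr encodes the endothelial protein C receptor (EPCR), a surface protein by which HSC are purified, and lies at chr2:155751125-155755478. It had 106.2, 136.6, 51.2 and 166.4 CPM in Dlk1+ and 77.3, 147.6, 109.4 and 113.2 CPM in Dlk1- libraries. The lowest and the highest library were both Dlk1+, and the lowest, replicate 3, rests on 2 UMIs. The log2 fold change of Procr was 0.24 (95% confidence interval -0.36 to 0.85).

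Esam, an adhesion molecule of HSC and endothelium at chr9:37528089-37538319, had 111.2, 165.9, 127.98 and 124.8 CPM in Dlk1+ and 56.04, 99.8, 126.2 and 140.4 CPM in Dlk1- libraries. On plate 5 both Dlk1+ libraries were above both Dlk1- libraries, and on plate 6 all 4 libraries lay between 124.8 and 140.4 CPM. The log2 fold change of Esam was 0.38 (95% confidence interval -0.23 to 0.99). Procr and Esam are also made by endothelial cells: of 7 endothelial markers 6 were in the tables, and their summed level ranged from 25.6 to 144.5 CPM in Dlk1+ and from 65.7 to 142.5 CPM in Dlk1- libraries. The sum came mostly from Cldn5, Pecam1, Emcn and Kdr, with means per sort from 13.3 to 36.8 CPM. Plvap and Stab2 reached at most 2.19 and 1.93 CPM in a library, and Cdh5 was the marker missing. The part of endothelial RNA in the Procr and Esam values was not tested.

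The cytoplasmic members were Fgd5, at a level close to that of Slamf1, and Ctnnal1. Fgd5, an exchange factor for the GTPase Cdc42 at chr6:91978827-92076005, ranged from 25.6 to 80.99 CPM in Dlk1+ and from 48.3 to 81.7 CPM in Dlk1- libraries. Ctnnal1, alpha-catulin, at chr4:56810935-56865375, ranged from 0 to 48.8 CPM in Dlk1+ and from 25.1 to 46.1 CPM in Dlk1- libraries. Its 0 in Dlk1+ replicate 3 allows up to 76.8 CPM, which is above every other Ctnnal1 value. The log2 fold changes were 0.00 (95% confidence interval -0.60 to 0.61) for Fgd5 and -0.17 (95% confidence interval -0.97 to 0.63) for Ctnnal1.

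Over the list, 0 of 10 genes were called at an adjusted p of 0.05, beside 0.0353% of the 5666 genes tested (2 genes, Dlk1 and Timp3, both higher in Dlk1+). At an unadjusted p of 0.05 the count was 1 of 10, Ly6a, beside 6.49% of all genes (2.31% for genes higher in Dlk1+). A limma fit with an intensity trend called 0 of 10, and 0 genes in all. The library ranges of 0 of 10 members were free of overlap, beside 3.14% of all genes. The fold change was above 0 for 7 of 10 members, beside 45.2% of all genes, and the median was 0.09 for the members and -0.04 for all genes tested. The median of the members was between 0.012 and 0.21 when 1 library was left out, -0.10 with the intensity trend and -0.057 with a minimum of 2000 transcripts per cell. With no low-count filter it was 0.0065, below the 0.24 of all genes, so its place relative to other genes depends on the processing. In simulated libraries with the same sizes, limma-voom recovered 2.5% of genes changed 2-fold and 77.5% of those changed 4-fold, so most changes of 2-fold were missed there.

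**Figure D2:**
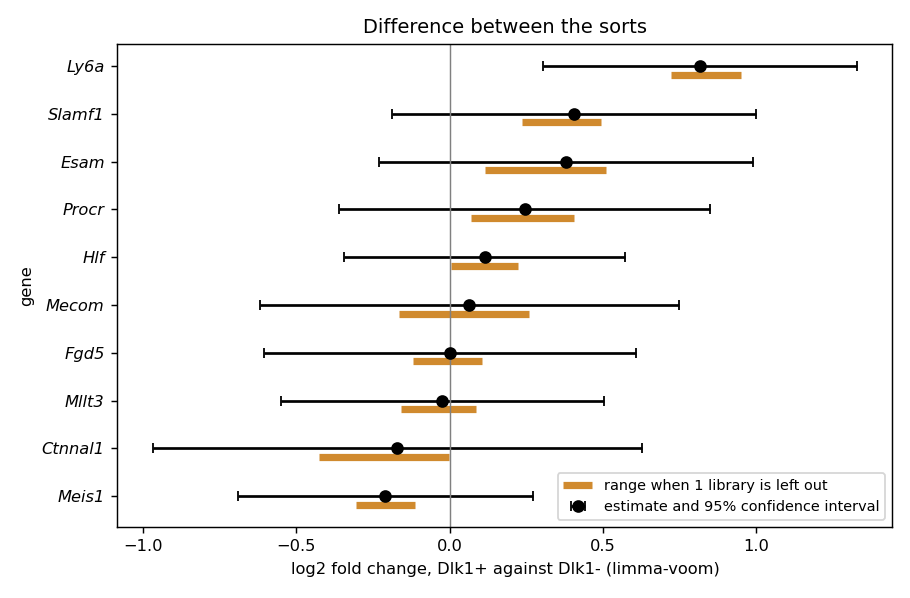
Log2 fold change of each identity gene between Dlk1+ and Dlk1- libraries (x axis, limma-voom, 4 libraries each). Points and thin bars are the estimate and its 95% confidence interval, and the orange bars are the range of the estimate when each library is left out in turn; the interval of Ly6a, from 0.30 to 1.33, lies above 0, and the other 9 intervals include 0.

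Among other HSC genes and progenitor genes, none passed the test between the sorts. Of a wider list of 49 HSC genes, 45 could be tested and 0 passed in either direction, with 3 higher and 2 lower at an unadjusted p of 0.05 (beside 2.31% higher and 4.18% lower of all genes) and a median log2 fold change of -0.04. The largest values were those of Sult1a1, a sulfotransferase (1.26), Vldlr, a lipoprotein receptor (0.81), and Tgm2, a transglutaminase (0.80). The lowest were those of Ramp2, a receptor activity-modifying protein (-0.98), Txnip, a thioredoxin inhibitor (-0.88), and Fli1, an ETS factor (-0.84). Tgm2 averaged 514 ± 182.3 CPM over the Dlk1+ and 271 ± 50.2 CPM over the Dlk1- libraries (SD, n = 4 each), with an adjusted p of 0.576 by limma-voom. Of 22 progenitor genes, 6 could be tested and 0 passed, with log2 fold changes between -0.57 (Car2, a carbonic anhydrase) and 0.44 (Cd27, a receptor of the TNF family). Cdk6 (-0.24), Prtn3 (-0.17), Cd34 (-0.06) and Csf3r (0.26) lay between them.

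Detection in single cells was compared after each cell had been thinned at random to 2000 UMIs, which left 190 Dlk1+ and 307 Dlk1- cells and dropped 30 and 14. At that depth Hlf was seen in 62.98% of the 497 cells, Mllt3 in 45.5% and Meis1 in 45.3%. Ly6a was seen in 24.7%, Mecom in 24.5%, Procr in 22.7% and Esam in 21.3%. Fgd5 and Slamf1 were each seen in 11.3% of cells, and Ctnnal1 in 6.04%. Without thinning, Hlf was seen in 53.8% to 89.4% of the cells of a library, and its lowest share was in the shallow Dlk1+ replicate 3. Slamf1 transcripts were thus not seen in most cells that had been sorted for its protein, which at this depth does not show that they were absent. Stray transcripts of these genes were also found off the cells. The 728 unused barcodes held 23663 UMIs, with 34 from the identity genes, while the 541 cells held 4899 identity UMIs. Relative to all UMIs on such barcodes this was 1437 CPM, against 1881 CPM in the cells. By that relative measure Hlf (634 against 555 CPM) and Mllt3 (423 against 311 CPM) were as high there as in cells. These 2 values rest on 15 and 10 UMIs, where the cells held 1445 and 809. The part of such stray reads in the shares was not tested. In addition, 32 wells rich in haemoglobin transcripts on unused barcodes of the Dlk1- libraries (median 566 UMIs) were read: 3 of them held a transcript of any identity gene.

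Most members were spread over cells about as random counting at their mean would spread them. At low means, such as 0.26 UMIs per cell for Procr, this comparison can show little of a spread between cells. For Procr, the share of 22.7% equals the 22.8% that a Poisson distribution gives, and for Mecom 24.5% stood beside 24.4%. Hlf was seen in fewer cells (62.98%) than the 70.8% of a Poisson distribution, with a variance of 1.48 times its mean and up to 7 UMIs in a cell. Ly6a had a variance of 1.28 times its mean, with up to 6 UMIs in a cell, and Mllt3 1.16 times. Of the cells with Hlf, 51.8% held 2 or more UMIs, against 11.4% of the cells with Ly6a and 0 of the 30 cells with Ctnnal1.

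Between the sorts, the shares of the members had unadjusted p from 0.143 (Slamf1) to 0.971 (Mecom and Mllt3) by exact two-sided permutation of the 8 libraries in 70 ways, whose smallest possible p is 0.0286. Adjusted over 5086 genes the smallest value was 0.798 and no gene passed (0.0%), Dlk1 included, so at this number of libraries the adjusted test says nothing on whether shares differ. Ranges that did not overlap were found for 0 of 10 members, beside 3.58% of genes. Hlf was seen in 65.99% ± 7.79 of Dlk1+ and 61.2% ± 4.87 of Dlk1- cells, and Slamf1 in 16.2% ± 6.25 and 10.2% ± 3.06 (SD, n = 4 libraries each). Dlk1+ replicate 3 gave only 4 cells, and other random draws turned the sign of the difference for 7 of the 10 genes.

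In the planned random draw, Ly6a was seen in 20.9% of Dlk1+ and 20.3% of Dlk1- cells on average, with an exact permutation p of 0.943. Without Dlk1+ replicate 3 the Dlk1+ mean in that draw was 27.8% (exact permutation p of 0.2), and the ranges overlapped. The average over all possible draws was chosen after seeing the data. By that average, Ly6a was seen in 25.2%, 31.5%, 18.98% and 32.4% of cells in Dlk1+ libraries. In Dlk1- libraries it was seen in 22.5%, 20.5%, 16.02% and 22.7%. Only replicate 3 of the Dlk1+ libraries lay inside the Dlk1- range. The exact permutation p was 0.143 with all 8 libraries. Without replicate 3, which held 4 cells, the averaged shares of Ly6a did not overlap (29.7% ± 3.92 and 20.5% ± 3.12). Their exact permutation p was 0.0286, the smallest that 3 against 4 libraries allow, with an adjusted p of 0.719 over 5086 genes. Of all genes, 6.41% had ranges without overlap in that comparison. Procr, at 26.2% ± 4.64 against 21.2% ± 6.76, and Mllt3, at 49.3% ± 6.58 against 43.2% ± 7.65, overlapped between the sorts there too.

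**Figure D3:**
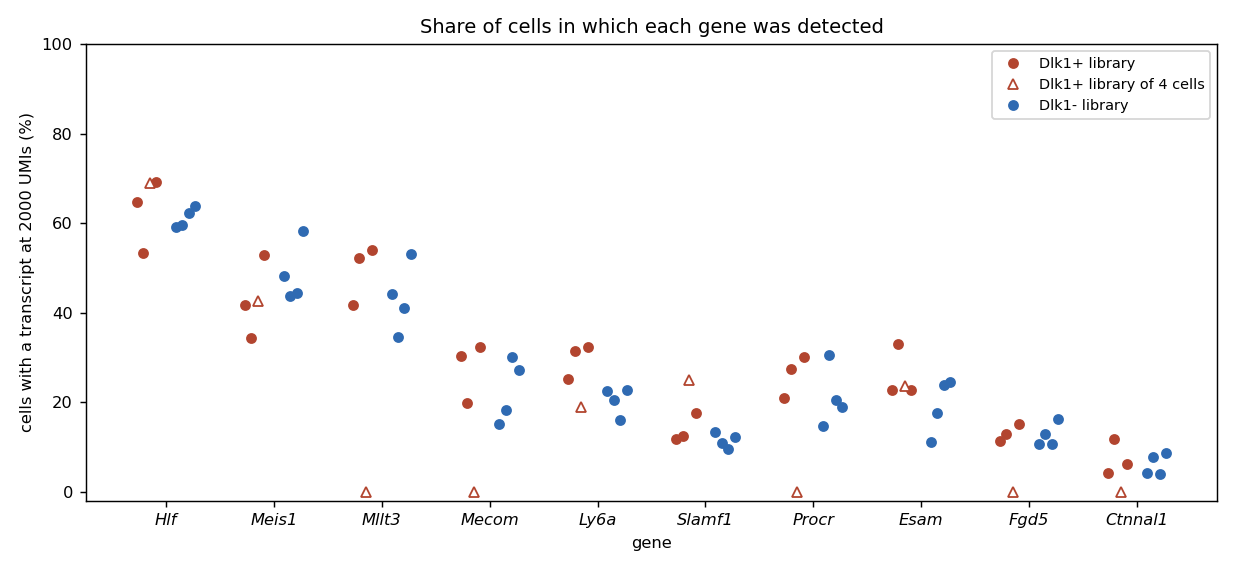
Share of cells with at least 1 UMI of each identity gene (y axis, percent), averaged over all thinnings of each cell to 2000 UMIs. Each filled point is a Dlk1+ (red) or Dlk1- (blue) library and the open triangle is the Dlk1+ library with 4 cells; Hlf is highest in every library and the sorts overlap for all 10 genes when the triangle is counted.

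A cell carried few of the 10 transcripts at a time. At 2000 UMIs a library's cells held 2.63 ± 0.47 of the 10 genes on average (SD, n = 8 libraries), with 2.68 ± 0.66 in Dlk1+ and 2.58 ± 0.29 in Dlk1- libraries (n = 4 each). Of 497 cells, 23 held none of the identity genes, 26.4% held 2, 25.2% held 3, and 2 cells held 7 or 8. No cell held 9 or 10.

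Counted by pairs, co-detection was close to independence. Over the 45 pairs of genes, 1726 joint detections were counted where the shares within each library give 1646, a ratio of 1.05, and 26 of 45 pairs were above their expected number. Pairs among 4358 other genes of like share had a ratio of 1.02. For the identity genes the ratio was 1.02 in Dlk1+ and 1.07 in Dlk1- cells, and between 0.97 and 1.12 in the 7 libraries with over 20 cells. The variance of the number of identity genes per cell was 1.19 times that under independence within library. This variance ratio was 1.08 in Dlk1+ and 1.27 in Dlk1- cells. In those 7 libraries it ran from 0.84 (Dlk1+ replicate 4) to 1.42 (Dlk1- replicate 3). These ratios describe cells that share a library and its preparation, and no test was made of them.

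The values of single genes and pairs are from 1 random draw, and the means per gene pool the cells of all libraries. Cells with Procr carried 2.91 of the other 9 genes and cells without it 2.42. Within libraries, the mean was higher with Procr in 7 of 7. No other member was higher in every library compared, and the nearest were Meis1 (6 of 7), Fgd5 (5 of 6) and Hlf (6 of 8). Procr and Meis1 were found together in 64 cells against 51.6 expected (7 of 7 libraries above), and Procr and Hlf in 81 against 71.1 (6 of 7). The highest ratio was that of Slamf1 and Ly6a, the 2 genes whose proteins were gated, with 22 cells against 14.1 (1.55), from 14 against 7.30 in Dlk1- and 8 against 6.85 in Dlk1+ cells. Mllt3 and Fgd5 followed among pairs with over 20 cells, at 34 against 26.01 (1.31). For Mecom and Ctnnal1 the pooled means lay the other way. Cells with Mecom carried 2.45 of the other genes and cells without it 2.53, higher with it in 3 of 7 libraries. Cells with Ctnnal1 carried 2.47 and cells without it 2.71, higher with it in 2 of 5. Mecom and Ctnnal1 met in 5 cells against 7.72 (0.65).

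**Figure D4:**
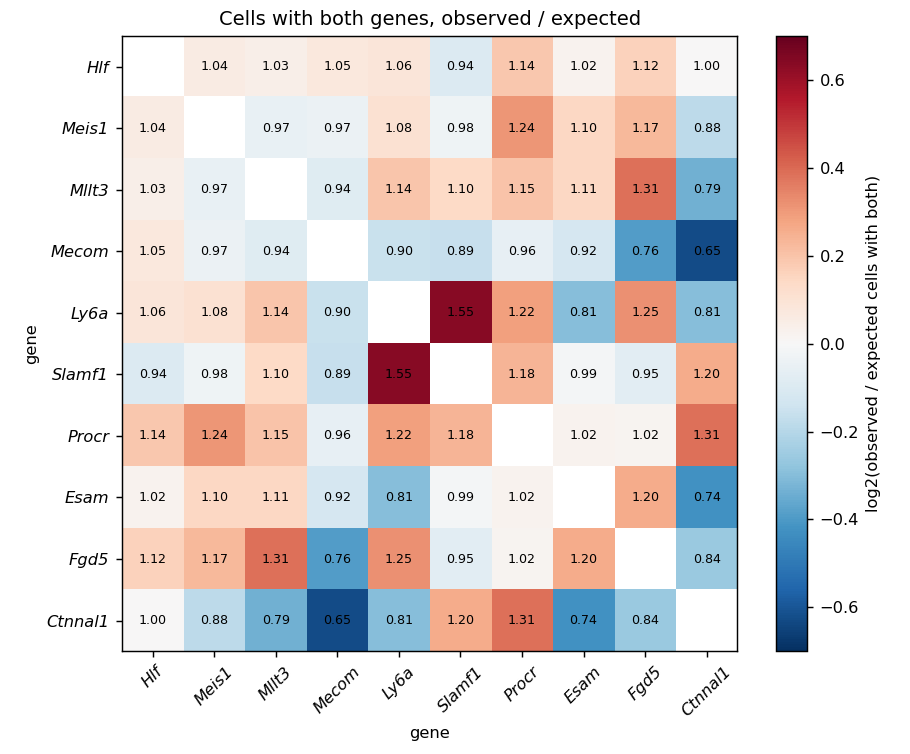
Number of cells with both genes divided by the number expected from the 2 shares within each library, for the 45 pairs of identity genes in 497 cells thinned to 2000 UMIs (numbers give the ratio, colours its log2). Slamf1 with Ly6a has the highest ratio (1.55) and Mecom with Ctnnal1 the lowest (0.65).

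Cells with a transcript of the division program held fewer identity genes. The list of G2M genes, such as Mki67, Top2a and Cdk1, was seen in 83 cells of the 6 libraries with at least 5 such cells, against 385 cells without. Cells with a G2M transcript carried 2.17, 1.5, 1.53 and 2 identity genes in Dlk1- libraries 1 to 4, and 2.06 and 3.09 in Dlk1+ libraries 1 and 4. Cells without carried 2.35, 2.73, 2.81, 3.16, 3.05 and 3.32 in the same order, so the count was lower with a G2M transcript in all 6 libraries. The difference was -0.84 ± 0.50 genes per cell (SD, n = 6 libraries). It was -0.33 at 1000 UMIs and -0.22 without thinning, and between -0.46 and -0.95 with 4 other random draws.

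The genes did not take equal parts in this. Hlf was seen in 43.9% of cells with a G2M transcript and 67.6% without, lower in 6 of 6 libraries. Procr was seen in 9.65% against 26.3%, also lower in 6 of 6, and Mllt3 in 28.5% against 47.7%, lower in 5 of 6. Of 5084 genes, 2.54% were lower in all 6 libraries, and the median difference over them was 0.17 percentage points. Mecom was seen in 24.5% against 25.3% and Fgd5 in 10.3% against 11.99%. These library counts depended on the random draw: over 5 draws Hlf was lower in 5 to 6 of 6 libraries, and Procr and Mllt3 in 4 to 6. The mean difference ran from -23.7 to -10.7 points for Hlf, from -16.6 to -10.7 for Procr and from -19.2 to -7.73 for Mllt3, and that of Meis1 from -17.6 to 4.95. Without thinning, Hlf was seen in 80.2% against 86.8%, lower in only 3 of 6 libraries, and Procr in 32.9% against 44.5%, lower in 5 of 6. Mllt3 was then lower in 4 of 6. Slamf1 and Ly6a were also lower on average, while Mecom, Fgd5, Meis1, Ctnnal1 and Esam were higher with a G2M transcript. At 1000 UMIs, Hlf and Procr were lower in 4 of 5 libraries and Mllt3 in 3 of 5.

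Depth before thinning moved with this split. The median UMI number of cells with a G2M transcript was higher than that of cells without in 5 of 6 libraries, for example 11082.5 against 4973 in Dlk1- replicate 2 and 6261 against 3821 in Dlk1+ replicate 1. Its part in the difference was not tested beyond thinning all cells to 1 depth.

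**Figure D5:**
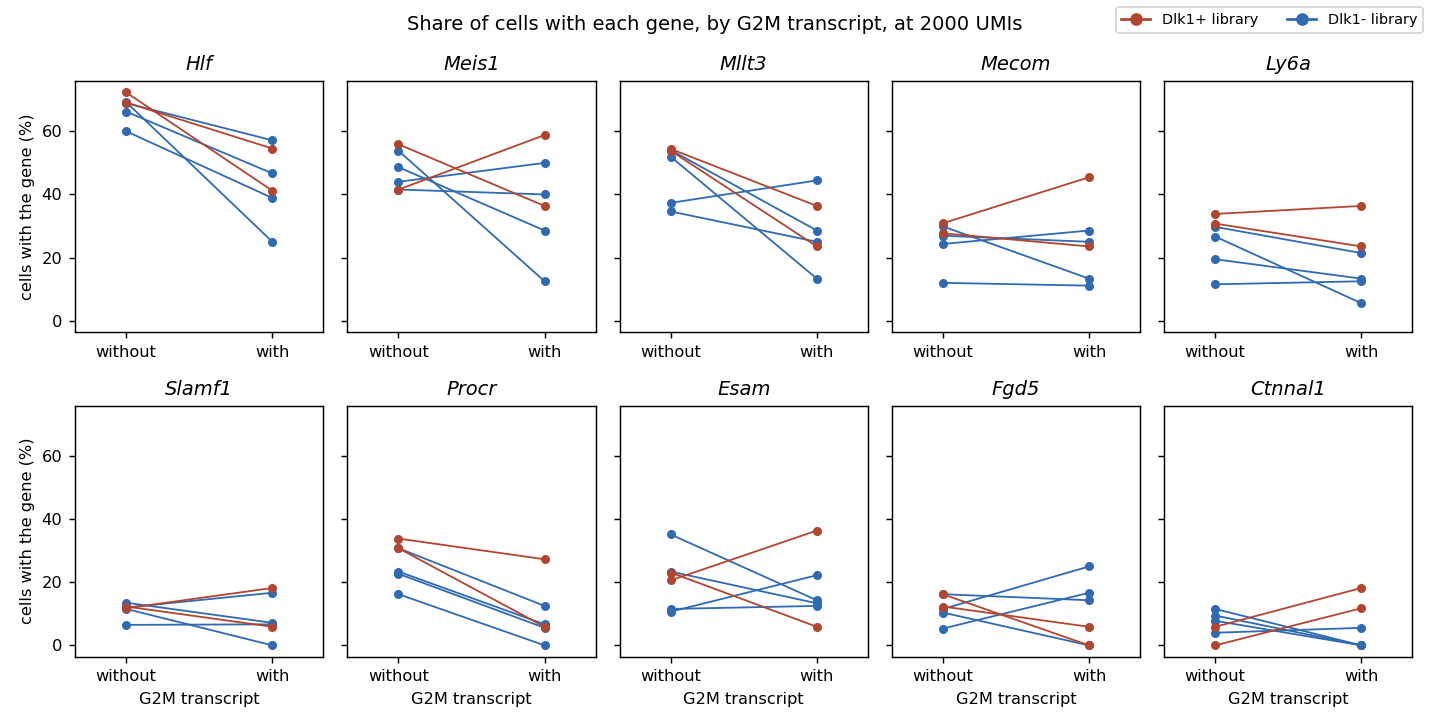
Share of cells with each identity gene (y axis, percent) in cells without and with a transcript of the G2M list at 2000 UMIs. Each line is 1 of 6 libraries with at least 5 cells on both sides (red Dlk1+, blue Dlk1-); all lines fall for Hlf and Procr, and lines cross for Mecom, Esam and Fgd5.

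Cells were split by other transcripts in the same way, and no test compared the splits. Within Dlk1+ libraries, cells with a Dlk1 transcript carried 3.09 and cells without 2.84 identity genes, a difference of 0.25 that was above 0 in 3 of 3 libraries but between -0.03 and 0.13 with other random draws. Cells with Vwf, the clotting factor that marks platelet-biased HSC, carried 2.81 against 2.74, higher in 4 of 7 libraries. For the progenitor list the difference was 0.49 over 3 libraries with 19 cells on the side without, and turned negative in 2 of the other draws. The size of these differences changed with depth: without thinning they were -0.067 for Dlk1, 0.75 for Vwf and 0.82 for the progenitor list, larger for the last 2 than the -0.22 of the G2M list.

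The genes most like the identity set were weakly so. Of 965 genes seen in at least 20% of cells, the highest mean correlation over cells with the number of identity genes was that of Malat1, a nuclear noncoding RNA (Pearson r of 0.27, averaged over 7 libraries and 493 cells), followed by Apoe (0.26), Rps27rt (0.25), Txnip (0.25) and Rplp1 (0.25). The cells of a library share its depth and preparation, and other random draws kept 2 or 3 of these 5 genes and thinning to 1000 UMIs kept 0. The lowest were Gm21962 (-0.21) and Gm10715 (-0.20). In Dlk1+ replicate 1 the median share of Gm10800 and Gm26870 was 35.97% in cells with 0 or 1 identity gene and 19.4% in cells with 4 or more, and in the other 5 libraries compared the shares differed by less.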

How the data were processed

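The authors deposited estimated transcripts per gene and barcode, corrected for UMI collisions and not scaled, with 1 table per library. Per the submitters' processing notes, BWA 0.6.2-r126 and mm10 were used; counting settings are not given in the sources used here. Inverting the correction gave whole UMIs in every entry (tolerance 1e-06). Own barcodes were 1 to 96 (Dlk1+) and 97 to 192 (Dlk1-), without the 10 barcodes 17, 20 to 24 and 29 to 32, which held haemoglobin transcripts in libraries that had no cells there. Transcripts of barcodes with at least 1000 were summed per library and tested with limma-voom (limma 3.58.1, R 4.3.3), with trimmed-mean scaling and a low-count filter, over 5666 genes. It replaced the planned edgeR test, which was not run although whole UMIs were recovered, because the unit of the deposited values could not be checked as counts. The members and lists were chosen with earlier results of these data known. All members are named, and of the 2 other lists the genes past the threshold or, with none, the 3 highest and 3 lowest. Shares used exact permutation of libraries. No doublet caller was run. Same-numbered barcodes of different libraries were slightly more alike than others in most library pairs. The widest gap was a median r of 0.451 against 0.436 (Dlk1+ libraries 1 and 3). The same number was the best match for at most 2 barcodes of a library pair, for example 2 of 91 in Dlk1- libraries 1 and 3. By that check, no sharing of cells between libraries was seen. The fit was tested on simulated data: for 5666 genes it recovered 2.5%, 77.5% and 91% of genes changed 2-, 4- and 8-fold. Deviations of same-numbered libraries of the 2 sorts correlated weakly (r from 0.04 to 0.06), but each library correlated best with its own number. The main fit did not treat the numbers as pairs, and a fit with a replicate block is given below. Sequences are from RefSeq (GRCm38.p6). Other cell type markers were summed: stroma averaged 65.5 CPM (Dlk1+) and 23.5 CPM (Dlk1-), megakaryocyte 155.1 and 181.8, erythroid 89.3 and 51.5, myeloid 1148 (4585 in Dlk1+ replicate 4) and 1.01, which without barcode 91 became 10.2 (33.4 in replicate 4) and 1.01, and B cell 16.5 and 26.6. No T cell marker was in the tables used here.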

Additional observations from a re-analysis of the deposited data

Results flagged for a closer look

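In 42 groups of 4 libraries (level and share of each identity gene and the number per cell, in each sort), 3 had a library set apart from the others beyond Dixon's limit; chance flags about 1 in 20 groups. Meis1 had 366 CPM in Dlk1+ replicate 4, where the other 3 Dlk1+ libraries had 230.4 to 253 CPM. Mecom was seen in 11.8% of the cells of Dlk1- replicate 1 at 2000 UMIs (95% Wilson interval 6.73% to 19.9%), where the other Dlk1- libraries had 25% to 27.2%. Mllt3 was seen in 0.0% of the cells of Dlk1+ replicate 3, where the others had 47.6% to 52%. That library gave 4 cells at this depth, and for 0 of 4 cells the 95% Wilson interval reaches 48.99%. These intervals cover counting error only.

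Barcodes that were not used for cells also held identity transcripts. The 728 unused barcodes held 23663 UMIs in all, and 34 of them were from the identity genes, including 15 of Hlf and 10 of Mllt3. Relative to the UMIs on those barcodes this is 1437 CPM, beside 1881 CPM in the 541 cells. As counts it is 34 identity UMIs on 728 barcodes, against 4899 in the 541 cells. The 32 haemoglobin-rich wells of the Dlk1- libraries, with a median of 566 UMIs, had an identity transcript in 3 wells.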

How the results depend on the processing

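Of the 218 fold changes of identity genes under alternatives, 27 changed direction and 0 passed the threshold; Ly6a, Slamf1, Esam, Meis1 and Ctnnal1 kept their direction in all of them. Fgd5 was -0.033 with library size alone, -0.10 with no low-count filter, -0.0060 with a total of at least 50, -0.34 with limma trend, -0.056 with the replicate block, -0.14 with a minimum of 2000 and -0.0027 without Gm10800 and Gm26870. Mecom was -0.062 with no low-count filter, -0.30 with limma trend, -0.024 with the 10 barcodes put back and -0.090 with a minimum of 2000. Procr was -0.075 with limma trend. Mllt3 was 0.014 with a minimum of 500, 0.014 without barcode 91 and 0.11 without Dlk1+ libraries 2 and 3. Hlf was -0.11 with a minimum of 2000 and -0.013 with cells thinned before summing, a fit that tested 2217 genes and 8 members. The cause of these turns was not tested. No low-count filter moved the median of all genes to 0.24 and limma trend to -0.23. Leaving out 1 library gave -0.12 to 0.10 for Fgd5, -0.16 to 0.26 for Mecom and -0.16 to 0.088 for Mllt3.

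The number of genes called was 2; it was 0 with limma trend, 1 with the replicate block, 4 with the 10 barcodes put back, 1 with a minimum of 2000, 1 with cells thinned before summing, 5 without Dlk1+ libraries 2 and 3, and 1 to 19 without 1 library (19 without Dlk1+ replicate 4, 1 without Dlk1- replicate 3 and 1 without Dlk1+ replicate 2), with 0 identity genes in each. Under the replicate block Ly6a had 0.83 (adjusted p 0.8287, limma-voom), and each library correlated best with its own number (r from 0.04 to 0.06), a hint from the data only. DESeq2 was not run, because the unit of the deposited tables could not be checked as counts; limma-voom on the recovered whole UMIs called 2 genes of 5653. Without Gm10800 and Gm26870 the progenitor difference had no value, since no library had at least 5 cells on both sides.

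Differences in share (points, Dlk1+ minus Dlk1-) turned sign most. Without thinning they were -4.85 for Procr, -12.0 for Hlf, -3.91 for Slamf1, -18.4 for Meis1 and -3.03 for Esam, and the number per cell differed by -0.70. At 1000 UMIs they were -0.52 for Procr, -3.90 for Meis1 and 0.78 for Ctnnal1. Over all thinnings they were -1.54 for Procr and -5.69 for Meis1. With other random draws they were -2.57, -1.68 and -1.43 for Procr, -7.25, -1.15, -15.0 and -3.47 for Meis1, -3.27 and -5.41 for Hlf, 2.44 and 0.93 for Mecom, 1.14 for Mllt3, 0.070 for Fgd5 and 0.020 for Ctnnal1. Without Gm10800 and Gm26870 they were -0.17 for Procr, -8.13 for Hlf, -3.09 for Slamf1 and -0.089 for Esam, and with the 10 barcodes put back -1.01 for Meis1. Without Dlk1+ libraries 2 and 3 they were 7.25 for Mecom, 8.05 for Mllt3 and 0.74 for Fgd5. Without 1 library they ran from -0.83 to 10.1 for Procr, -4.34 to 6.63 for Mecom, -8.53 to 8.81 for Mllt3, -3.89 to 7.51 for Ly6a and -0.30 to 5.42 for Meis1.

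The number of identity genes per cell was 1.61 at 1000 UMIs and 4.27 without thinning. The G2M difference was -0.33 at 1000 UMIs and -0.22 without thinning. The Dlk1 difference was -0.067 without thinning and 0.021, 0.064, -0.033 and 0.13 with other draws. The Vwf difference was 0.75 without thinning, and the progenitor difference was -0.20 and -0.28 with 2 other draws. Co-detection kept its ratio within the spread of libraries in all 18 alternatives. Of the 9 neighbours in the order of levels, 8 kept their order by share of cells and 9 by totals without Gm10800 and Gm26870. Fits with an intensity trend, a total of at least 50, without barcode 91, without 2 libraries, and the mean over thinnings were chosen after seeing the data. Depth limits the shallow Dlk1+ replicate 3 most, where a count of 3 is 76.8 CPM.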
